A study of Mus musculus with 55 samples.

Results

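Acetylation of histone H3 at lysine 27 (H3K27ac) and open chromatin were compared in the liver of untreated wild type (WT) mice, peak by peak. H3K27ac was mapped by ChIP-seq of crosslinked liver from 3 WT mice, and accessibility by ATAC-seq of liver nuclei from 3 WT mice. The 27983 H3K27ac peaks and the 27307 ATAC peaks of the 2 lists, 55290 of the 173819 peaks and islands of all lists in the series, were sorted by whether 1 bp or more of each lay in a peak of the other assay. A peak is called shared where it did, and H3K27ac only or ATAC only where it did not. The mice were C57Bl6 males of 45 to 50 days with no transgene, deletion or drug given in the labels, and whether the same livers served both assays is not stated. Their labels say untreated, although the study's methods also describe vehicle or mock treatment of controls. The series (55 samples) was made to study hepatocytes that lack the histone methyltransferase Setd8 and are driven to enlarge by TCPOBOP, a CAR agonist, and those samples enter here only where they are named. Each assay has 1 list made over all of its livers, so no spread between livers is known and no test across livers could be made. The intervals given are exact 95% binomial intervals of counts of peaks, and they cover counting error only.

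H3K27ac is deposited by the acetyltransferases p300 and CBP on nucleosomes that flank active promoters and enhancers, and it is used to mark elements in use. ATAC-seq measures how easily a transposase inserts into DNA, which is highest where transcription factors or the transcription machinery have displaced nucleosomes. The marked nucleosomes therefore border, and do not fill, the open stretch. In liver, the open elements of hepatocytes are known to be bound by HNF4A, the FOXA proteins, HNF1 and C/EBP factors, while CTCF and cohesin, whose ring holds the subunit Smc3, occupy open sites that organize chromosome loops and need not be acetylated.

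The classes are shown here by the DNA of their strongest peaks at genes of the lists described below. Each run is read from GRCm38.p6 on the plus strand, with annotated exons left out, so that windows mostly made of exons were passed over. Capitals mark matches to short motifs searched on both strands: HNF4A (CAAAGTCCA), FOXA (TGTTTAC), HNF1 (GTTAATNAT), C/EBP (TTGCGCAA), NR5A2 (TCAAGGTCA), PAR bZIP (TTATGTAA), AP-1 (TGANTCA), STAT5 (TTCNNNGAA), CRE (TGACGTCA), E-box (CACGTG), ETS (CCGGAAGT), NRF1 (GCGCATGCG), YY1 (AAGATGGCG), the GC box (GGGCGG) and the box named by its letters, CCAAT. With the CTCF consensus, for which 1 mismatch was allowed, 16 motifs were searched. None of these strings contains another, although matches can overlap. Among peaks at genes of those lists, the first run lies at the summit of the shared peak with the highest H3K27ac fold enrichment, 69.7, chr1:66862983-66863172, at the start of Acadl, which encodes the long-chain acyl-CoA dehydrogenase. The second is the centre of the shared peak with the highest ATAC fold enrichment, 11.0, chr5:90439225-90439524, whose nearest protein-coding start is that of Alb (albumin) at 21522 bp. The third is from an H3K27ac only peak with a fold enrichment of 60.1, the highest of its class that left enough bases outside exons, chr1:190169400-190169505, at Prox1, a hepatocyte transcription factor. The fourth is the ATAC only peak with the highest fold enrichment among them, 16.7, chr7:70300579-70300783, 59240 bp from a start of Nr2f2, which encodes a nuclear receptor. The fifth, chr1:138209838-138210049, ranks 3 by fold enrichment, 13.2, among the ATAC only peaks nearest to genes of those lists. It was added after its sequence was seen because it holds an HNF1 motif, a CCAAT box and an HNF4A motif in close succession. Its nearest protein-coding gene, 34638 bp away, is Ptprc, a leukocyte gene.
Acadl, shared: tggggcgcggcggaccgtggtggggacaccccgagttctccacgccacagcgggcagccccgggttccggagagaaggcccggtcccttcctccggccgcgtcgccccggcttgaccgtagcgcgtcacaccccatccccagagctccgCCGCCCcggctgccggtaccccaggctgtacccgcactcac
Alb distal, shared: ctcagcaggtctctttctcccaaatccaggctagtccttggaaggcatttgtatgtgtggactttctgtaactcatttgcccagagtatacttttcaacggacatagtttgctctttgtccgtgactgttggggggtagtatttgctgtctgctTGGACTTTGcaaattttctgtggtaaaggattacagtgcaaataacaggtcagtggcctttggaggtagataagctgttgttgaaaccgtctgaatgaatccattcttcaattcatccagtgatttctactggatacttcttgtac
Prox1, H3K27ac only: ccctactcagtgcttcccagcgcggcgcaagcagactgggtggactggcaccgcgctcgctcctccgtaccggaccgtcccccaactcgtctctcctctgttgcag
Nr2f2 distal, ATAC only: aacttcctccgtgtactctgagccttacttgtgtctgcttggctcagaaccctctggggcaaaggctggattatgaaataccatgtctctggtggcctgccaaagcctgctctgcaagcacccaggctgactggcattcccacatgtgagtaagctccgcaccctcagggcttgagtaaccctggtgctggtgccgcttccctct
Ptprc distal, ATAC only: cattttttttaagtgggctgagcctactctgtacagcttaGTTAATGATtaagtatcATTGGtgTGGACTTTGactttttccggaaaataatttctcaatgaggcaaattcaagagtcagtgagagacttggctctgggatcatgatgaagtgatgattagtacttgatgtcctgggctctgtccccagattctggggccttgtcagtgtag

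The run at Acadl had a GC content of 74.7% with 23 CpG dinucleotides, and the one at Prox1 67.0% with 10. The distal run near Alb had 42.7% and 3, and that near Nr2f2 56.1% and 3.

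A minority of each list was common to both, and a majority of each stood alone. Of the H3K27ac peaks, 13208 (47.2%, interval 46.6 to 47.8) overlapped an ATAC peak and 14775 did not. Of the ATAC peaks, 12153 (44.5%, interval 43.9 to 45.1) overlapped an H3K27ac peak and 15154 did not. The H3K27ac peaks covered 19.1 Mb and the ATAC peaks 9.41 Mb, and both lay on the same 3.48 Mb, which is 18.2% of the acetylated and 37.0% of the accessible length. The overlap depended on its definition. When peaks up to 200 bp apart were counted as well, 61.5% of the H3K27ac peaks and 51.5% of the ATAC peaks were shared, and when 50% of the shorter peak had to be covered, 29.2% and 30.5% were. Among H3K27ac only peaks, 27.1% ended within 200 bp of an ATAC peak and 40.1% within 1000 bp, whereas 12.5% and 15.9% of the ATAC only peaks lay that close to an H3K27ac peak. The unshared acetylation lay near accessible sites more often than the unshared accessibility lay near acetylation, over the same distances.

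Shared acetylated regions were longer and more strongly enriched than those with H3K27ac only. Their median length was 668.5 bp (quartiles 413 and 1065) against 403 bp (270 and 666.5), and their median fold enrichment at the summit 19.2 (10.0 and 39.9) against 9.03 (7.17 and 14.0). ATAC peaks showed the same order in length but the opposite order in fold enrichment. Shared ATAC peaks had a median length of 384 bp (quartiles 280 and 534) and ATAC only peaks one of 251 bp (195 and 323.75), while the median fold enrichment, here averaged by the caller over the peak, was 6.78 (5.46 and 8.20) for shared and 8.15 (6.73 and 9.59) for ATAC only peaks. The 2 fold enrichments are not on one scale. Length moved with both sharing and fold enrichment, and its part in these differences was not tested.

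**Figure D1:**
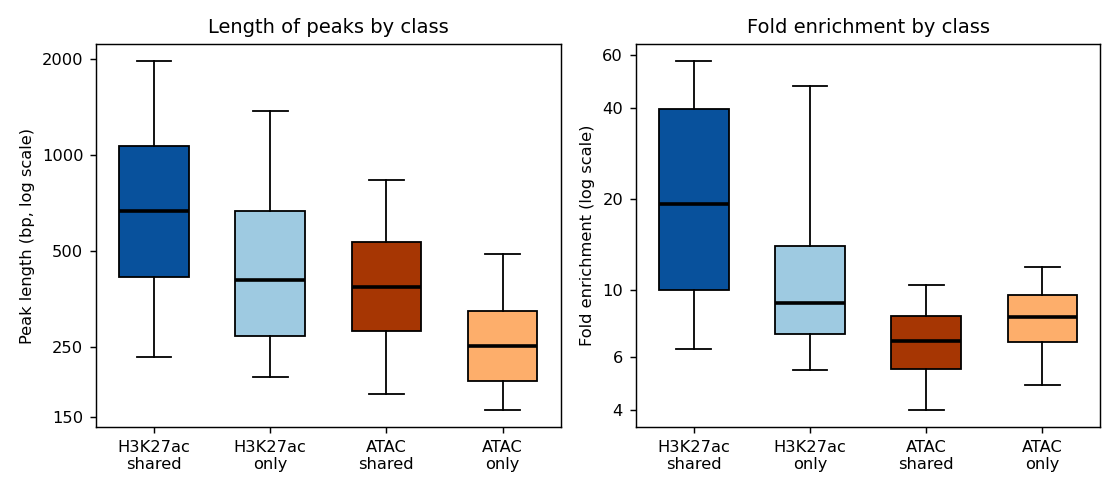
Length in bp (left, log axis) and fold enrichment (right, log axis) of the peaks of each class, with the median as a thick line, the quartiles as a box and the 5th and 95th percentiles as whiskers. H3K27ac values are at the summit and ATAC values are averages over the peak. Shared H3K27ac peaks are longer and more enriched (medians 668.5 bp and 19.2) than unshared ones (403 bp and 9.03), while shared ATAC peaks are longer (384 against 251 bp) but less enriched (6.78 against 8.15).

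With the H3K27ac list ordered by fold enrichment and divided into 4 equal bins, the share that overlapped an ATAC peak rose from 24.6% in the lowest bin through 34.8% and 55.6% to 73.8% in the highest. In the ATAC list the order ran the other way, from 64.6% in the bin with the lowest fold enrichment through 50.0% and 37.4% to 25.9% in the highest. With 4 equal bins of length, the shares rose in both lists, from 26.7% to 67.3% for H3K27ac and from 21.4% to 78.1% for ATAC. At promoters, ATAC peaks of the 2 classes still differed in the same direction, with a median fold enrichment of 6.97 for 8475 shared and 7.77 for 2218 ATAC only peaks and median lengths of 398 and 263 bp.

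The classes differed in their share at promoters. With a promoter taken as the region within 1000 bp of any annotated transcript start, 69.7% of shared ATAC peaks (interval 68.9 to 70.6) and 14.6% of ATAC only peaks (14.1 to 15.2) were at promoters. ATAC only peaks were instead in introns (45.9%) or between genes (35.2%), and 4.22% had their centre in an exon. For H3K27ac, 69.1% of shared (68.3 to 69.9) and 44.8% of unshared peaks (44.0 to 45.6) were at promoters, and a further 32.8% of the H3K27ac only peaks were in introns. Read from the other side, 79.3% of the 10693 promoter ATAC peaks overlapped acetylation, as against 22.1% of the 16614 others. Promoter H3K27ac peaks overlapped accessibility in 58.0% of 15739, and other H3K27ac peaks in 33.3% of 12244. The centre of a shared ATAC peak lay at a median of 240 bp from the nearest protein-coding start, that of an ATAC only peak at 20853 bp, and 28.0% of the latter were over 50000 bp away. Shared H3K27ac peaks had a median distance of 355 bp and H3K27ac only peaks one of 3518.5 bp.

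**Figure D2:**
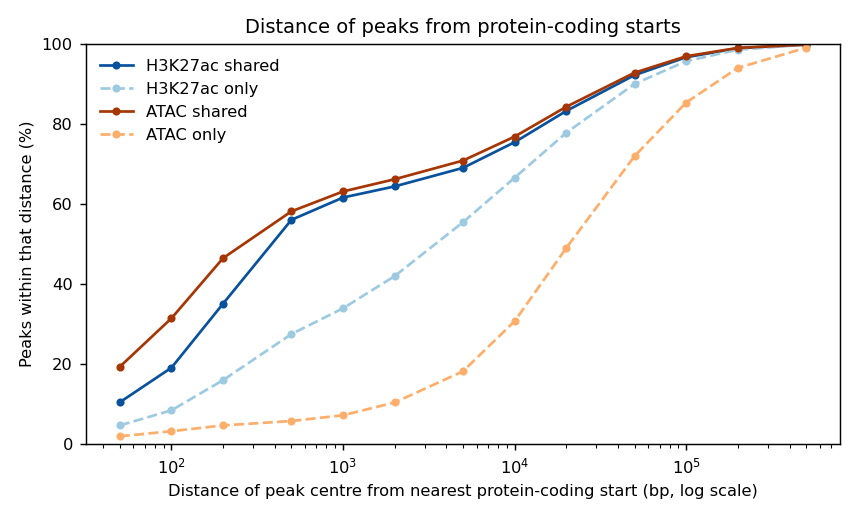
Share of peaks of each class (y axis, %) whose centre lies within a given distance of the nearest protein-coding transcript start (x axis, bp, log scale). Both shared classes rise steeply to 1000 bp, H3K27ac only peaks rise in between, and ATAC only peaks lie farthest from starts, with a median of 20853 bp.

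The strongest shared H3K27ac peaks stood at gene starts. Ranked by summit fold enrichment, they were at Hipk3 (74.9), a protein kinase gene, Pnrc1 (74.9), a nuclear receptor coactivator gene, Urgcp (74.5), Ube2g1 (74.5), which encodes a ubiquitin-conjugating enzyme, and Ggnbp2 (74.5). The 5 peaks were 1407 to 2904 bp long, each with its centre within 627 bp of the start. The strongest ATAC peak in each had a fold enrichment of 4.73 to 7.68. The longest shared H3K27ac peak, chr1:36066690-36075114 with 8425 bp, lay in Hs6st1. Next were the 6602 bp over Cebpa, chr7:35116794-35123395, which encodes the hepatocyte factor C/EBPα, and 6343 bp at Fam169b. Among the longest 5 was also the peak at Rxra, the partner of many nuclear receptors, with 6270 bp.

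Ranked by ATAC fold enrichment, the shared peaks were at Kifap3 (16.8), Tchhl1 (16.2), Asnsd1 (15.3), Hmgb3 (14.9) and Hccs (14.7). They were 206 to 369 bp long and, apart from the peak at 1047 bp from a Tchhl1 start, centred within 172 bp of a start. The overlapping H3K27ac peaks had fold enrichments from 9.61 at Tchhl1 to 62.0 at Hccs, which encodes a heme lyase of the mitochondrion. The longest shared ATAC peak had 1625 bp and lay in Gng12, with Gadd45a as the nearest start, and a peak of 1538 bp lay at L3hypdh.

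H3K27ac peaks without an ATAC peak reached almost the same height. The highest were at Bicral (74.1), Pura (73.8), Zfhx3 (73.6), Rdx (73.6) and Lpgat1 (73.4), and 4 of these 5 had their centre within 936 bp of a start. Zfhx3, a homeobox factor gene, was the exception with 1348 bp. All 5 genes had a promoter with H3K27ac only. The longest were 8054 bp beside Setd1b, chr5:123135797-123143850, 6559 bp over Midn, and 5416 bp near Gpr146, the last with a lower fold enrichment of 10.4. Bcl6, a repressor of the STAT5 response in liver, had an unshared peak of 4798 bp with a fold enrichment of 65.3.

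ATAC peaks without acetylation were mostly far from genes at the top of their range. The 5 with the highest fold enrichment were 201 to 237 bp long, and their nearest protein-coding starts were those of Tenm2 (fold enrichment 17.2, distance 1383027 bp), Nr2f2 (16.7, 59240 bp), 4933415F23Rik (16.4, 105389 bp), Mup7 (16.0, 9590 bp) and Mbd2 (15.9, 119554 bp). Mup7 belongs to the major urinary proteins, which hepatocytes secrete. The longest, 3076 bp on the mitochondrial chromosome, had a fold enrichment of 1.80 and is not nuclear chromatin. The next were 1732 bp in Serpina3m, a serpin gene, and 1702 bp near Gstp3, a glutathione transferase gene. Only 2 ATAC peaks lay on the mitochondrial chromosome, and both were ATAC only.

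The centre of a shared ATAC peak lay at a median of 234 bp from the nearest H3K27ac summit (quartiles 134 and 354), and 38.6% of shared H3K27ac peaks (interval 37.8 to 39.4) had their summit inside an ATAC peak. Conversely, 63.9% of shared ATAC peaks (63.0 to 64.7) had their centre inside an H3K27ac peak. The pairing was mostly one to one, since 96.0% of shared H3K27ac peaks held 1 ATAC peak, 527 held more, and 8 held 3. From the other side, 1568 ATAC peaks (12.9%) touched more than 1 H3K27ac peak.

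At starts of protein-coding genes the positions of ATAC and H3K27ac peaks differed. Among the 8526 genes with both marks, ATAC peaks were most frequent at 50 bp upstream of the most upstream start, where 65.0% of genes had one, and H3K27ac peaks at 200 bp downstream, where 87.1% had one. At 500 bp the ATAC share was alike on both sides, 11.2% upstream and 11.5% downstream, while the H3K27ac share was 31.7% upstream and 61.4% downstream. Genes with H3K27ac only had the same downstream maximum, 77.2% at 200 bp, and genes with ATAC only had their ATAC maximum, 58.1%, at 50 bp upstream.

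**Figure D3:**
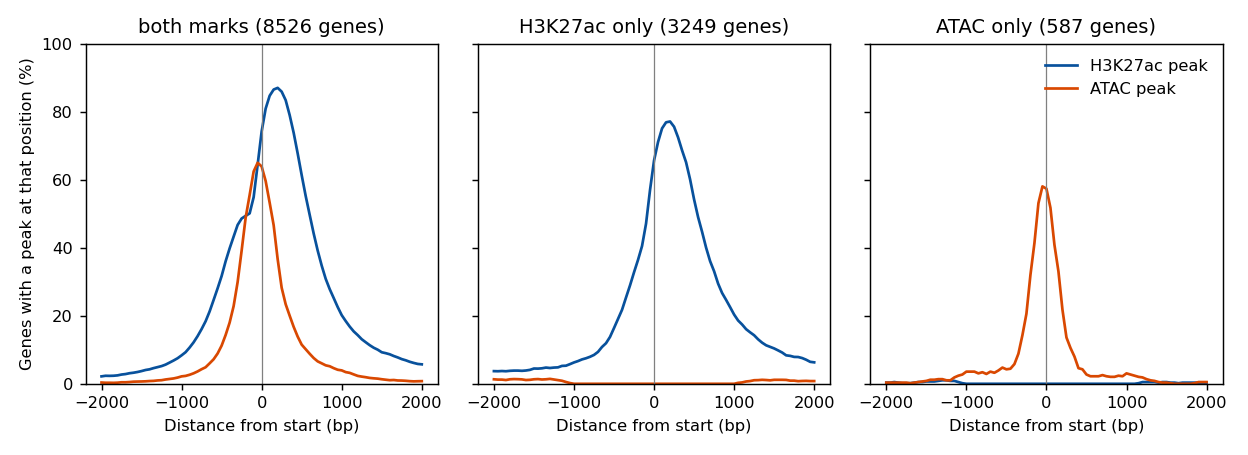
Share of genes (y axis, %) with an H3K27ac peak (blue) or an ATAC peak (orange) at each distance from the most upstream protein-coding start (x axis, bp, upstream negative), for genes with both marks, H3K27ac only or ATAC only within 1000 bp of a start. ATAC peaks centre 50 bp before the start and H3K27ac peaks 200 bp after it. The near absence of the other mark within 1000 bp in the middle and right panels follows from how the classes are made.

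Each of the 21853 protein-coding genes was given a promoter class by the peaks within 1000 bp of any of its starts. Both marks were present at 8526 genes (39.0% of all genes), H3K27ac only at 3249 (14.9%), ATAC only at 587 (2.69%) and neither at 9491 (43.4%). These shares are the background for the lists and families below. At 8173 of the genes with both marks (95.9%) the peaks overlapped each other. H3K27ac at promoters with both marks had a median fold enrichment of 37.0 and a median length of 858 bp, against 26.9 and 722 bp at promoters with H3K27ac only. For ATAC, the medians were 7.23 and 410 bp with both marks and 8.67 and 295 bp with ATAC only. A gene with H3K27ac only had its nearest ATAC peak at a median of 12808 bp from a start, and a gene with ATAC only its nearest H3K27ac peak at 27760 bp.

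Most genes of hepatocyte function were acetylated at the promoter. All 28 plasma protein genes carried H3K27ac at the promoter, 22 with and 6 without an ATAC peak. The bile acid genes (8 with both marks and 4 with H3K27ac only of 12), the genes of the urea cycle and amino acid catabolism (11 and 3 of 14) and those of cholesterol and fatty acid synthesis (13 and 1 of 14) also left none without acetylation. Of 26 hepatocyte transcription factor genes, 16 had both marks, 9 H3K27ac only, and Creb3l3 neither, with its nearest H3K27ac peak at 4004 bp. Gluconeogenesis and glycolysis genes had both marks in 11 of 12 and housekeeping genes in 14 of 16. The circadian clock genes had both in 15 of 19 and H3K27ac only in 4, namely Clock, Cry1, Hlf and Rora. Of 18 immediate early and stress genes 12 had both marks. In fatty acid oxidation, 10 of 14 had both, and Cyp4a10, an omega-hydroxylase gene, was the one with ATAC only. Drug metabolism genes were more mixed, with 10 of 17 with both marks and 4 with neither. These 4 included Cyp2b10, the classical target of the CAR receptor, whose nearest H3K27ac peak lay 108916 bp away while 3 ATAC only peaks lay within 50 kb. Cyp2a5 and Cyp2c37 had neither mark either. Their normalized counts in untreated WT livers were 4913 to 10018 and 2460 to 6603, against 25 to 106 for Cyp2b10. Whether the authors' filter on mapping quality left peaks out at these genes was not tested.

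**Figure D4:**
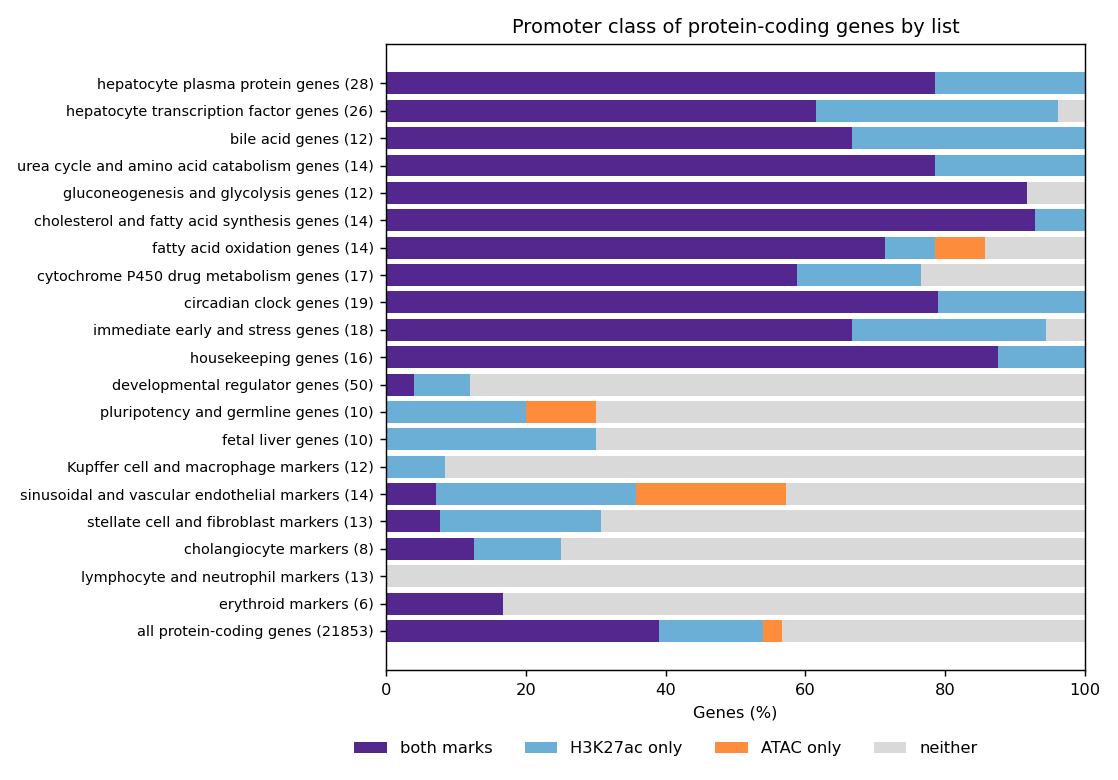
Share of the genes of each list (x axis, %) with both marks, H3K27ac only, ATAC only or neither within 1000 bp of a protein-coding start, with the number of genes in parentheses and all 21853 protein-coding genes in the lowest bar. Lists of hepatocyte function hold 58.8 to 92.9% genes with both marks, all genes 39.0%, and the lymphocyte and neutrophil list none.

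The 6 plasma protein genes with H3K27ac but no ATAC peak at the promoter were Alb, Apoa1, Apoa2, Apoe, Serpinc1 and Hp. They encode albumin, 3 apolipoproteins, antithrombin and haptoglobin, all of which the liver secretes in bulk. Their nearest ATAC peaks lay between 1460 bp (Apoa1) and 5184 bp (Hp) from a start. The H3K27ac peaks covered 96.4% of the Apoa2 gene, 88.3% of Apoa1 and 81.2% of Apoe, but 5.88% of Alb. Alb had 7 shared ATAC peaks, 10 H3K27ac only peaks and 2 ATAC only peaks within 50 kb of a start. Its normalized count in the 5 untreated WT livers was 714846, 914210, 984219, 630727 and 1230909, so all 5 livers held abundant Alb RNA, and no ATAC peak was called at the promoter.

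The upstream 250 bases of Alb, Cyp3a11 and G6pc, genes of 3 different lists, are printed to show the letters at promoters with and without an ATAC peak. They are from RefSeq on GRCm38.p6 in the direction of transcription, with the motifs named above in capitals. That of Alb, chr5:90460620-90460869, with H3K27ac only, held a pair of PAR bZIP motifs, an HNF1 motif and a pair of CCAAT boxes, and neither an H3K27ac nor an ATAC peak reached it. That of Cyp3a11, chr5:145879855-145880104, also with H3K27ac only, held an HNF4A and a FOXA motif beside a GC box. That of G6pc, chr11:101367466-101367715, which encodes glucose-6-phosphatase and had both marks, held a pair of CCAAT boxes and an HNF1 motif that runs into the first of them, and an ATAC peak lay on it.
Alb promoter: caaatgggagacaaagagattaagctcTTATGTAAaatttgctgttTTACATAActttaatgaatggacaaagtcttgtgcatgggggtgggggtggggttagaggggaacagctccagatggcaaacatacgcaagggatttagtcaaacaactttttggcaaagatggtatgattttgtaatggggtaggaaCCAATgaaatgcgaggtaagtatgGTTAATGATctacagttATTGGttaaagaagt
Cyp3a11 promoter: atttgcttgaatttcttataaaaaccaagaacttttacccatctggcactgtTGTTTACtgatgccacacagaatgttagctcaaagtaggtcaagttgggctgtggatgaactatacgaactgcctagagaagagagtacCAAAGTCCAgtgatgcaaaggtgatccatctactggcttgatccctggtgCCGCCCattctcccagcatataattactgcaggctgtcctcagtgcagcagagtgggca
G6pc promoter: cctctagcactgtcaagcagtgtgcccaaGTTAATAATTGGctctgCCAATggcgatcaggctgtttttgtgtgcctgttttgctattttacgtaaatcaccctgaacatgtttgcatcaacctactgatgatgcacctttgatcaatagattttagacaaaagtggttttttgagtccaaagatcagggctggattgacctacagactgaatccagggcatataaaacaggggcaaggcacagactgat

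The hepatocyte factor genes with H3K27ac only held some of the strongest acetylation. Their fold enrichments were 65.3 at Bcl6, 64.9 at Nr2f2, 60.1 at Prox1, 56.7 at Onecut1, 56.3 at Ppara, 53.7 at Foxa1, 53.1 at Cebpa, 44.3 at Onecut2 and 12.8 at Tox3. At Cebpa the H3K27ac peak covered 100% of the gene and did overlap an ATAC peak, but that ATAC peak began 3129 bp from the start. By contrast Hnf4a, the master regulator of the hepatocyte, had both marks and was, with Eef1a1, Pim3 and Tlcd2, among the protein-coding genes with the most shared ATAC peaks within 50 kb of a start, 11 each. Hnf4a had 10 H3K27ac only and 2 ATAC only peaks in the same span. Within the lists Por, the reductase that serves the cytochromes P450, followed with 10. The highest promoter H3K27ac among list genes with both marks was at Acadl (69.7), and the highest promoter ATAC enrichment at F9, the coagulation factor IX gene, with 10.7.

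Markers of other liver cells were mostly without either peak. None of 13 lymphocyte and neutrophil markers had a promoter peak, 11 of 12 Kupffer cell and macrophage markers had neither, and C1qc was the exception with an H3K27ac peak of 207 bp. Stellate cell and fibroblast markers had neither in 9 of 13 and cholangiocyte markers in 6 of 8, with both marks at Pdgfra and Sox9. In whole tissue, a cell type that is rare and a promoter that is weakly marked in many cells cannot be told apart. Of the endothelial markers, 3 of 14 had ATAC only, namely Tek (fold enrichment 7.56), Fcgr2b (6.79) and Cdh5 (6.38), against 2.69% of all genes. A further 4, Kdr, Flt1, Eng and Ptprb, had H3K27ac only, with fold enrichments of 32.1, 24.7, 41.9 and 22.1, Gata4 had both, and 6 had neither. The labelled tissue was checked by the plasma protein genes, of which 28 of 28 promoters were acetylated.

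Genes for other tissues and stages were largely unmarked. Of 50 developmental regulators, among them the Pax, Sox and Hox genes, 44 had neither mark, Tbx3 and Olig1 had both, and Lhx2, Hand2, Tbx2 and Gsc had H3K27ac only. Of 10 fetal liver genes 7 had neither, Afp (α-fetoprotein) and Igf2 among them, although 3 shared ATAC peaks lay within 50 kb of the Afp start, where the neighbouring Alb also lies. The other 3, Igf2bp3, Hmga2 and Cdkn1c, had H3K27ac only, which is 30% of the list against 14.9% of all genes. Among pluripotency and germline genes Dppa3 had ATAC only, Dazl and Ddx4 had H3K27ac only (20%), and 7 of 10 had neither. Among 6 erythroid markers 5 had neither.

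Families of genes taken by name showed the same contrast. Neither mark was found at 1128 of 1134 olfactory receptor genes (Olfr), 330 of 331 vomeronasal receptor genes (Vmn) and 57 of 57 keratin-associated protein genes (Krtap). Both marks were found at 41 of 46 genes of respiratory complex I named Nduf, 39 of 50 proteasome genes (Psm) and 75 of 101 genes named Rpl or Rps. The last were taken by the start of the name, so not all of them encode ribosomal proteins. Zinc finger genes named Zfp had both marks in 220 of 394 and ATAC only in 37 (9.39%), and histone genes (Hist) had both in 19 and ATAC only in 5 of 67 (7.46%). Histone and ribosomal protein genes have near copies, and whether the authors' filter on mapping quality left peaks out there was not tested.

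Peaks within 50 kb of a start were counted for each gene. These counts include the promoter peaks that set the class, so their differences between classes are in part fixed and are given as a description. Genes with both marks had a mean of 2.54 shared ATAC peaks and genes with neither 0.613. H3K27ac only peaks numbered 3.18 on average around genes with H3K27ac only promoters and 2.12 around genes with both marks. ATAC only peaks were about as frequent around genes with both marks (1.43) as around those with H3K27ac only (1.46), and numbered 0.598 around genes with neither, which by their class have none at the promoter. The most H3K27ac only peaks, 26 each, were around Mtss1 and Sik3, which encodes a salt-inducible kinase, followed by Nat8f2 and Uvrag with 24. The most ATAC only peaks were around Gse1 and Plekha6 with 12 each. The ATAC only peaks over 1000 bp from a start had a gene with both marks as the nearest in 51.8%, with H3K27ac only in 24.7% and with neither in 21.2%, whereas 15.2% of the distal shared ATAC peaks were nearest to a gene with neither.

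The sequence of the classes differed in base composition, which the sorting did not use. In 300 bp at the ATAC peak centre or the H3K27ac summit, the median GC content was 58.7% for shared ATAC, 49.3% for ATAC only, 62.7% for shared H3K27ac and 52.0% for H3K27ac only peaks, as against 45.0 to 45.7% in the same windows moved by 5000 bp. Windows with a GC content of at least 50% and an observed to expected CpG ratio of at least 0.6, as in CpG islands, made up 51.1% of shared ATAC and 3.55% of ATAC only peaks. For H3K27ac they made up 54.1% and 30.9%. At promoters alone the ATAC contrast remained, with 70.3% of 8475 shared and 17.0% of 2218 ATAC only windows, whereas H3K27ac promoter peaks differed less, 75.6% shared and 59.8% unshared. Away from promoters few windows were CpG-rich, 6.83% of shared ATAC and 1.25% of ATAC only, while for H3K27ac the order turned, with 6.18% of shared and 7.42% of H3K27ac only windows. Bases that the reference assembly masks as repeats made up a mean of 10.2% of the ATAC only windows and 6.35% of the shared ones, and 27.9% and 29.3% of the moved windows.

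The HNF4A, FOXA and HNF1 motifs were above moved windows at the centres of distal ATAC peaks, with and without acetylation. At H3K27ac summits their intervals did not lie above those of moved windows. Among distal ATAC peaks, the HNF4A motif was in 4.03% of shared (interval 3.41 to 4.71) and 3.08% of ATAC only windows (2.79 to 3.39), against 0.381% and 0.379% of the same windows moved by 5000 bp. HNF1 was in 3.43% and 3.03%, against 0.680% and 0.789%, and FOXA in 8.95% and 10.0%, against 4.54% and 4.12%. These 3 motifs were more frequent than in moved windows in both distal classes, acetylated or not. The intervals of the classes overlap for HNF1 (2.86 to 4.07 and 2.74 to 3.34) and FOXA (8.05 to 9.92 and 9.52 to 10.6). The C/EBP motif was in 0.272% and 0.247% of the same distal ATAC windows, against 0.0272% and 0.0232% of the moved ones. At distal H3K27ac summits, the HNF4A motif was in 0.564% of shared and 0.306% of H3K27ac only windows, beside 0.515% and 0.503% of the moved ones. FOXA was in 4.29% and 3.75% there, beside 4.78% and 4.30%, and HNF1 in 0.686% and 0.503%, beside 0.785% and 0.895%. For these 3 motifs the intervals of shared summit and moved windows overlap. Over all H3K27ac peaks, promoters included, HNF4A was in 0.363% of shared and 0.237% of H3K27ac only summit windows, beside 0.356% and 0.501%. FOXA was in 2.48% and 3.01%, beside 4.26% and 4.22%, and HNF1 in 0.310% and 0.393%, beside 0.757% and 0.785%. These shares, except HNF4A at shared peaks, lay below the moved windows with intervals apart. C/EBP was in 0.144% and 0.0339%, beside 0.0303% and 0.0474%, with intervals apart for shared peaks only. Among distal ATAC peaks the PAR bZIP motif, bound by the clock output factors DBP, TEF and HLF, was in 2.53% (2.05 to 3.09) of the shared and 1.63% (1.42 to 1.87) of the ATAC only distal windows, beside 1.69% and 1.18% of the moved ones. The CTCF consensus, allowing 1 mismatch, went the other way, with 5.58% (4.86 to 6.37) and 9.44% (8.94 to 9.96), beside 3.62% and 3.04%.

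At promoters the shared ATAC windows held more GC boxes and more ETS, NRF1, YY1 and CRE motifs than the ATAC only windows. GC boxes were in 58.5% of shared and 23.3% of ATAC only promoter windows, ETS motifs in 7.89% and 1.76%, NRF1 in 3.16% and 0.631%, YY1 in 2.81% and 0.902% and CRE in 2.47% and 1.17%. The ATAC only promoter windows held more HNF4A (1.94% against 0.614%), FOXA (6.72% against 3.19%), HNF1 (2.16% against 0.779%) and CTCF matches (11.2% against 5.43%). Over 20143 RefSeq promoters of protein-coding genes, GC boxes were in 47.8%, ETS in 5.35%, HNF4A in 0.472%, FOXA in 2.96%, HNF1 in 0.71% and CTCF in 4.64%. Several of these motifs contain CpG or are GC-rich, and the part of the base composition given above was not tested. A match describes letters and not a bound site.

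**Figure D5:**
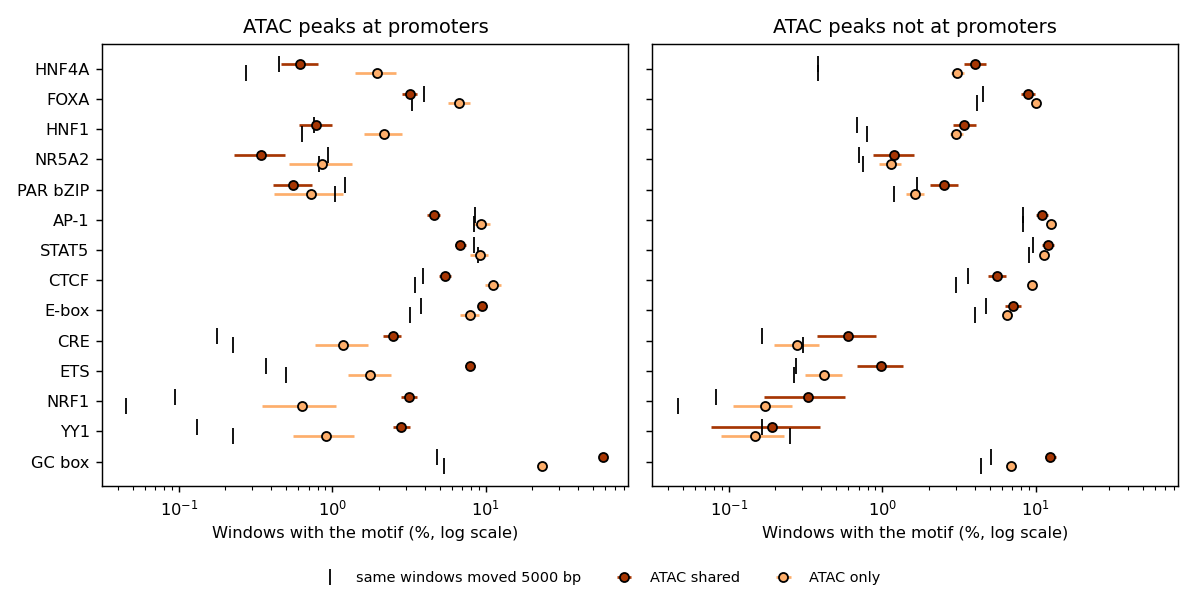
Share of 300 bp windows at ATAC peak centres with each motif (x axis, %, log scale) at promoters (left) and elsewhere (right), for shared and ATAC only peaks, with exact 95% intervals of counts as bars and the same windows moved by 5000 bp as black ticks. Distal windows of both classes hold HNF4A (4.03 and 3.08%), FOXA and HNF1 above the moved windows, while ETS, NRF1, YY1 and GC boxes are most frequent at shared promoter peaks.

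CTCF and Smc3 peaks of untreated WT liver, from ChIP-seq of 4 and 3 livers, were measures that the sorting did not use. Smc3 overlapped 18.9% of shared ATAC peaks (interval 18.2 to 19.6) and 11.1% of ATAC only peaks (10.6 to 11.6). It overlapped 19.5% of shared H3K27ac peaks (18.8 to 20.1) and 7.40% of H3K27ac only peaks (6.99 to 7.84). CTCF overlapped 6.35% of shared (5.93 to 6.80) and 5.35% of ATAC only peaks (5.00 to 5.72), and 6.08% and 2.29% of the H3K27ac classes. The order of the ATAC classes turned when the peak centre had to lie in the CTCF peak, with 2.87% of shared and 4.01% of ATAC only peaks. At promoters CTCF peaks were at 7.30% of shared and 7.35% of ATAC only peaks, so the higher share of CTCF motif matches at ATAC only promoters had no counterpart in CTCF peaks. Away from promoters CTCF was at 4.16% of shared and 5.01% of ATAC only peaks, with intervals that overlap (3.54 to 4.86 and 4.64 to 5.40), and at 0.796% of H3K27ac only peaks. Of the 5838 CTCF peaks, 3773 (64.6%) overlapped neither mark, 921 (15.8%) accessibility only, 677 (11.6%) both and 467 acetylation only. For Smc3 the order of both pairs remained with the peak centre, 12.7% and 9.87% for ATAC and 8.52% and 3.49% for H3K27ac. Away from promoters Smc3 was at 13.8% of shared and 10.5% of ATAC only peaks, a smaller gap than over all ATAC peaks. For the H3K27ac classes it was at 11.4% and 2.67% there.

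Islands of Lamin A/C and of H4K20Me3, marks of the nuclear periphery and of silenced chromatin, overlapped few peaks of any class. Lamin A/C islands were at 2.79% of ATAC only peaks (interval 2.53 to 3.07), 1.83% of shared ATAC peaks (1.60 to 2.09), 1.70% of shared H3K27ac and 1.71% of H3K27ac only peaks. H4K20Me3 islands were at 1.17% of ATAC only and 0.987% of shared ATAC peaks, with overlapping intervals (1.01 to 1.36 and 0.819 to 1.18). The ATAC only class had the highest Lamin A/C share of the 4.

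RNA could be set beside the promoter class for 2979 protein-coding genes of the 3900 in the deposited RNA-seq table. The table lists genes that the authors selected as changed between TCPOBOP-treated Setd8-LKO and untreated WT liver, and it holds 14.6% of the genes with both marks, 23.1% of those with H3K27ac only, 27.1% of those with ATAC only and 8.64% of those with neither. Values are the authors' normalized counts in 5 untreated WT livers, per kb of exon. The median of 1248 genes with both marks was 75.9, 70.3, 73.1, 76.5 and 72.9 in livers 1 to 5. For 752 genes with H3K27ac only it was 10.7, 9.40, 12.2, 11.8 and 11.6. For 159 genes with ATAC only it was 4.98, 3.58, 6.27, 5.73 and 6.36, and for 820 genes with neither 6.30, 4.95, 6.98, 6.43 and 6.52. All classes were measured in the same livers. In each of the 5 livers the median was highest for genes with both marks, next for H3K27ac only, then for neither, and lowest for ATAC only. The median with both marks was 6.67 ± 0.619 times that with H3K27ac only (mean ± SD, n = 5). Livers 1 and 2, which the column headers name run B, had ratios of 7.12 and 7.48, and livers 3 to 5, named run A, 5.97, 6.46 and 6.30. What a run was is not stated. The quartiles were wide, 10.6 and 608.8 for genes with both marks and 3.06 and 75.9 for H3K27ac only in liver 1.

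Finally, each class was looked up in the lists of Setd8-LKO mice (Setd8 lox/lox with Cre driven by the albumin promoter) taken 24 h after 3 mg/kg TCPOBOP (3 livers for H3K27ac and 5 for ATAC). Of the shared H3K27ac peaks 88.0%, and of the H3K27ac only peaks 68.5%, overlapped an H3K27ac peak there, and of the shared and ATAC only ATAC peaks 80.7% and 66.9% overlapped an ATAC peak. Genotype and treatment cannot be told apart there, and the part of peak length, greater in both shared classes, and of fold enrichment was not tested.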

How the data were processed

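H3K27ac ChIP-seq and ATAC-seq peaks of untreated WT liver were taken as deposited. Per the study's methods and the submitters' processing notes, reads were trimmed (Trimmomatic 0.39), aligned to mm10 (HISAT2), freed of duplicates, low mapping quality and blacklisted regions, and, for ChIP-seq, reduced to the smallest sample (not stated for ATAC-seq). Peaks were called with MACS2 2.2.7.1, and Lamin A/C and H4K20Me3 islands with SICER. The deposited fold enrichment is a ratio to the caller's background, at the summit for H3K27ac and averaged over the peak for ATAC. The deposited −log10 p values come from the same caller and were used for stricter thresholds. The islands' deposited score was not used beyond their positions. The normalized RNA counts that the authors deposited (metaseqR), 1 column per liver, were used for 5 WT livers, and the other 67 columns of per-sample values in that table were not used, nor were the authors' fold changes and p-values. How the livers were combined for peak calling is not given in the sources used here, and the study gives an average read depth for ChIP-seq and RNA-seq but none for ATAC-seq or for each library, which peak lists do not show.

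Overlaps of at least 1 bp, places (GENCODE M21, promoter within 1000 bp of a start), nearest genes and motifs were computed in Python 3.11.15 with numpy 2.4.6, pandas 2.3.3, scipy 1.17.1 and pysam 0.24.0, and the overlap code was tested on simulated data. Sequences are RefSeq GRCm38.p6, the same assembly as mm10, and 20143 promoters of 16515 genes matched. Shares carry exact Clopper-Pearson 95% intervals. Named were, per class, the 5 peaks with the highest fold enrichment and the 3 longest (shared peaks once by each assay), list genes with the most shared peaks within 50 kb or the highest fold enrichment of their promoter class, and genes with the most peaks. Some items that this rule would name are not reported here. Other peaks or genes named with these were chosen after their values were seen. The members and lists were chosen with earlier results of these data known. Alternatives to overlap, thresholds, promoter width and windows were tried, and leaving out each liver or using 1 run of the RNA-seq, as the column headers name it, was added after seeing the data.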

Additional observations from a re-analysis of the deposited data

How the results depend on the processing

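The share of peaks in common moved with the definition of overlap. For H3K27ac and ATAC peaks in turn, it was 29.2% and 30.5% with 50% of the shorter peak covered, 9.90% and 10.1% with 50% of both, 61.5% and 51.5% with peaks up to 200 bp apart, and 68.4% and 53.3% up to 1000 bp. It was 62.3% and 47.0% with H3K27ac peaks within 1000 bp joined, 39.6% and 37.2% with the same number of peaks from the top of both lists, 45.9% for H3K27ac with a −log10 p of at least 20, and 4.58% and 48.8% with at least 50, which left 14997 H3K27ac but 1234 ATAC peaks, so that few H3K27ac peaks could be shared. Median fold enrichments (H3K27ac shared, H3K27ac only, ATAC shared, ATAC only) were 12.5, 9.84, 6.71 and 8.39 with peaks up to 1000 bp apart. With 50% of the shorter peak covered they were 30.9 and 9.57 for H3K27ac and 7.90 for ATAC only, and with a −log10 p of at least 20 they were 9.81 for H3K27ac only, 6.94 for ATAC shared and 8.42 for ATAC only. Promoter shares of the 4 classes in that order were 67.1, 38.5, 65.9 and 10.7% within 500 bp, 73.5, 57.4, 74.7 and 24.3% within 2500 bp, 63.1, 36.3, 63.9 and 7.64% with protein-coding starts only, and 57.7, 53.1, 62.5 and 12.4% with peaks up to 1000 bp apart. They were 69.9 and 48.1% for H3K27ac with a −log10 p of at least 20. Smc3 shares were 8.52, 3.49, 12.7 and 9.87% with the peak centre inside, and 8.93% (H3K27ac only) and 10.1% (ATAC only) with a −log10 p of at least 20. Median GC content over whole peaks was 58.3, 51.5, 58.3 and 49.5%. The RNA ratio of genes with both marks to H3K27ac only was 5.58 without division by length, 7.47 with promoters of 2500 bp, 7.30 in run B and 6.24 in run A alone, and 6.46 to 6.84 with a liver left out. With 50% of the shorter peak covered, 67.5% of H3K27ac only peaks were in the Setd8-LKO list. The cause of the other moves was not tested. The order of shared against unshared peaks was kept in all 24 comparisons of the values above and in 49 of 52 others. It turned for the C/EBP motif in 200 bp ATAC windows (0.239% shared and 0.257% only), for CTCF at ATAC peak centres (2.87% and 4.01%) and for Lamin A/C with H3K27ac (1.75% and 1.74% with a −log10 p of at least 20). No groups of livers were compared by a test, each peak list covering all livers of its assay. The RNA ratio was taken within each liver, so its classes are paired by liver, and no test of it was run. Without the depth of each library, a peak that was not called is not shown to be absent.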
